A study of Mus musculus with 8 samples.

Results

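The genes described here are 7 of the 16791 in the count table of a study of the adult mouse heart. They are the flow-responsive transcription factors Klf2 and Klf4 and the vasoactive genes Nos3, Edn1, Ednrb, Ace and Ptgs1. They were taken by name, as rows of the table, with earlier results of these data known. Endothelial cells (EC) were compared between 4 healthy mice and 4 mice at 7 days post-MI (myocardial infarction), with 1 droplet library per mouse. Every mouse was an adult Pdgfb-iCreERT2-R26R-Brainbow2.1 animal that had received a single injection of tamoxifen at 150 mg/kg, 21 days before its heart was harvested. Cre was driven by Pdgfb, so the Confetti reporter marked cells of the Pdgfb lineage. In the MI group the left anterior descending artery had been tied off permanently. The healthy group had no surgery, so effects of the operation and of the infarct cannot be told apart. Confetti+ CD31+ podoplanin- cells of the ventricles were sorted, and levels were measured as unique molecular identifiers (UMIs), each of which stands for 1 captured transcript end.

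The endothelium controls the tone of vessels, and it reads the drag of flowing blood. Laminar flow signals through the kinases MEKK3 and ERK5 to MEF2 transcription factors, which are known to drive Klf2 and Klf4. These related factors in turn favour a quiescent, anti-thrombotic state and raise Nos3. Nos3 makes nitric oxide, which relaxes the underlying smooth muscle, and the prostanoids made through Ptgs1 include the vasodilator prostacyclin. Edn1 encodes the precursor of endothelin 1, a strong vasoconstrictor, and Ace converts angiotensin I into the vasoconstrictor angiotensin II and breaks down bradykinin. Ednrb, the type B endothelin receptor, clears endothelin on EC and couples it to nitric oxide release.

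Of the 31028 deposited cells, 28760 passed a gate for EC, which asked for at least 2 UMIs over 10 endothelial markers and more of these than of haematopoietic, mural, fibroblast, or erythroid and platelet markers. The summed UMIs of EC ranged from 6385401 to 7583823 per healthy mouse and from 14282203 to 23596750 per MI mouse. Levels are given as CPM (the UMIs of a gene scaled by all UMIs of the same cells and mouse). Some libraries stood apart. Healthy 228 shared 2041 cell barcodes with Healthy 239, and 2030 of these pairs held nearly the same UMIs, while 301 such pairs joined Healthy 227 and Healthy 228. Counting from each pair the copy with fewer UMIs, 55.3% of Healthy 228 and 10.9% of Healthy 227 were copied cells, so that much of Healthy 228 repeats another healthy library, and without copies its arterial cells numbered 92 and not 202. With copied cells left out, the calls over all EC reported below were kept. Healthy 227 and MI 244 also had a low level of Xist, the RNA of the inactive X chromosome, at 5.85 and 0.59 as log2(CPM + 1) against 9.99 to 10.2 in the other mice. Haematopoietic markers inside the gate summed to between 26.9 and 126 CPM in healthy mice and between 283 and 459 CPM in MI mice, with 7 of 12 higher and 0 lower in the MI group by edgeR's quasi-likelihood test, and their part in the results was not tested.

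Klf2 and Klf4 were both lower at 7 days post-MI over all EC. Klf2 (plus strand of GRCm38 chromosome 8, 72319033 to 72321656) was at 1529, 2627, 2891 and 2506 CPM in Healthy 227, 228, 239 and 240. It was at 1592, 1985, 1469 and 1447 CPM in MI 244, 250, 255 and 256. Healthy 227 lay among the MI mice, and the other healthy mice lay above all of them. The fall was 1.56-fold (log2 fold change −0.64 ± 0.183 SE, adjusted p = 0.0198 by edgeR's quasi-likelihood test, n = 4 mice per group). Klf4 (minus strand of chromosome 4, 55527143 to 55532466) was at 527, 828, 1112 and 1085 CPM in the healthy mice and at 400, 658, 477 and 563 CPM in the MI mice, in the same order. Healthy 227 was again within the MI range and the other 3 above it. Klf4 fell 1.79-fold (log2 fold change −0.84 ± 0.229 SE, edgeR adjusted p = 0.016).

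Among the 3318 genes compared over the sums of mice and classes described below, the gene most like Klf2 was Klf4 and the reverse also held (Pearson r = 0.91 over 28 sums, which share libraries and depth). The next were Jund (0.83 with Klf2 and 0.90 with Klf4) and Btg2 (0.81 and 0.87). Both are in the list of 20 genes of dissociation and early stimulation that is summed below. Since the pair moved together, the sequences before their starts are shown, from RefSeq on GRCm38.p6. The set of promoter sequences used here held 6 of the 7 genes and lacked Nos3. The searched letters were CTA and TAG with any 4 bases between them, and CACCC, the core bound by KLF factors, on both strands. The first is a form of the core bound by MEF2 factors, loosened only in the middle, where the 4 bases of the core are A or T. Forms of that core with other ends were not searched. Capitals mark these letters or their reverse complement in the 250 bases before the start, written 5′ to 3′ on the strand of the gene.
Klf2 (chr8:72318812-72319061, plus strand): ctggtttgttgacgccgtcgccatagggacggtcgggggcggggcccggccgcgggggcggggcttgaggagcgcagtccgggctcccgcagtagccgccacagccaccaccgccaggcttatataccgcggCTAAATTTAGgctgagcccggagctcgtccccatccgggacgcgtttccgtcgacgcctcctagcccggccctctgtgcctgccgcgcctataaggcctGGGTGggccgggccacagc
Klf4 (chr4:55532476-55532725, minus strand): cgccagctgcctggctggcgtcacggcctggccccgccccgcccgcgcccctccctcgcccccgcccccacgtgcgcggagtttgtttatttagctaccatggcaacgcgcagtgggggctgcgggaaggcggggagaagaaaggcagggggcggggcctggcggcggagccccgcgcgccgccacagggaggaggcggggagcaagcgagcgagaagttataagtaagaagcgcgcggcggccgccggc

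The RefSeq start of Klf2 lies downstream of the GENCODE start given above, so the end of its window is inside the gene as GENCODE places it. Counted from the RefSeq start, the Klf2 sequence held the letters CTAAATTTAG from 118 to 109 bases before it, a match that 3.202% of the 32851 mouse promoter windows of this length also had, and 1 KLF core. Its 4 middle bases are A or T, and this stricter form was in 0.508% of the windows. The Klf4 sequence held neither set of letters. A KLF core was in 52.0% of all windows. A match of letters is a description and shows no binding.

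Nos3 (chromosome 5, 24364810 to 24384474), the endothelial nitric oxide synthase, had nearly the same level in both groups. Its values were 87.4, 90.2, 105 and 109 CPM in Healthy 227, 228, 239 and 240 and 92.9, 102, 86.5 and 111 CPM in MI 244, 250, 255 and 256. The ranges overlapped almost wholly. The log2 fold change was −0.08 (95% interval −0.32 to 0.15, edgeR adjusted p = 0.559), so a change of the size seen for Klf4 lay outside the interval. Ednrb (chromosome 14, 103814625 to 103844402), the receptor, was at 75.0, 83.7, 96.9 and 82.7 CPM in the healthy mice and at 80.4, 93.1, 74.5 and 87.9 CPM in the MI mice. These also overlapped, with a log2 fold change of −0.09 (95% interval −0.32 to 0.13, edgeR adjusted p = 0.48).

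Edn1 (chromosome 13, 42301476 to 42307990), the ligand, was at 67.0, 50.6, 51.6 and 40.7 CPM in the healthy mice and at 30.4, 21.4, 43.5 and 42.1 CPM in the MI mice. Healthy 240 lay below MI 255 and MI 256, and the other healthy mice lay above the whole MI group. Edn1 fell 1.62-fold (log2 fold change −0.70 ± 0.222 SE, edgeR adjusted p = 0.0318). Its sequence before the start is shown with capitals as above.
Edn1 (chr13:42301226-42301475, plus strand): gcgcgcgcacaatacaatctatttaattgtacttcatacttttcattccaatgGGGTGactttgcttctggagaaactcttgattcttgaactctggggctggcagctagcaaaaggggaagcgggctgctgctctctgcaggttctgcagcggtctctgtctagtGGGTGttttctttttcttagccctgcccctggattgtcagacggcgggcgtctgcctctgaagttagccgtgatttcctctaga

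It held the KLF core at 2 places, both read on the opposite strand, and not the MEF2 letters. The window of Ednrb also held 2 KLF cores and each of the 2 windows of Ace held 1, while that of Ptgs1 held none. The part of these letters in the levels of the genes was not tested. The genes most like Edn1 over the 28 sums were Heg1, a transmembrane protein of endothelial junctions (Pearson r = 0.85), Mgst1 (0.85) and AU021092 (0.83).

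Ace and Ptgs1 moved the other way. Ace (chromosome 11, 105967945 to 105989964) was at 27.9, 29.2, 42.2 and 21.7 CPM in the healthy mice and at 50.1, 48.7, 81.9 and 68.8 CPM in the MI mice. The groups did not overlap, and the level was 1.94-fold higher in MI (log2 fold change 0.96 ± 0.217 SE, edgeR adjusted p = 0.00701). Ptgs1 (chromosome 2, 36230426 to 36252272), which encodes cyclooxygenase 1, was at 42.8, 34.2, 38.8 and 39.1 CPM in the healthy mice and at 73.4, 89.0, 109 and 64.6 CPM in the MI mice. It did not overlap either and was 2.04-fold higher (log2 fold change 1.03 ± 0.145 SE, edgeR adjusted p = 0.000752). The lowest count behind any of these values was 163 UMIs, for Ace in Healthy 240.

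**Figure D1:**
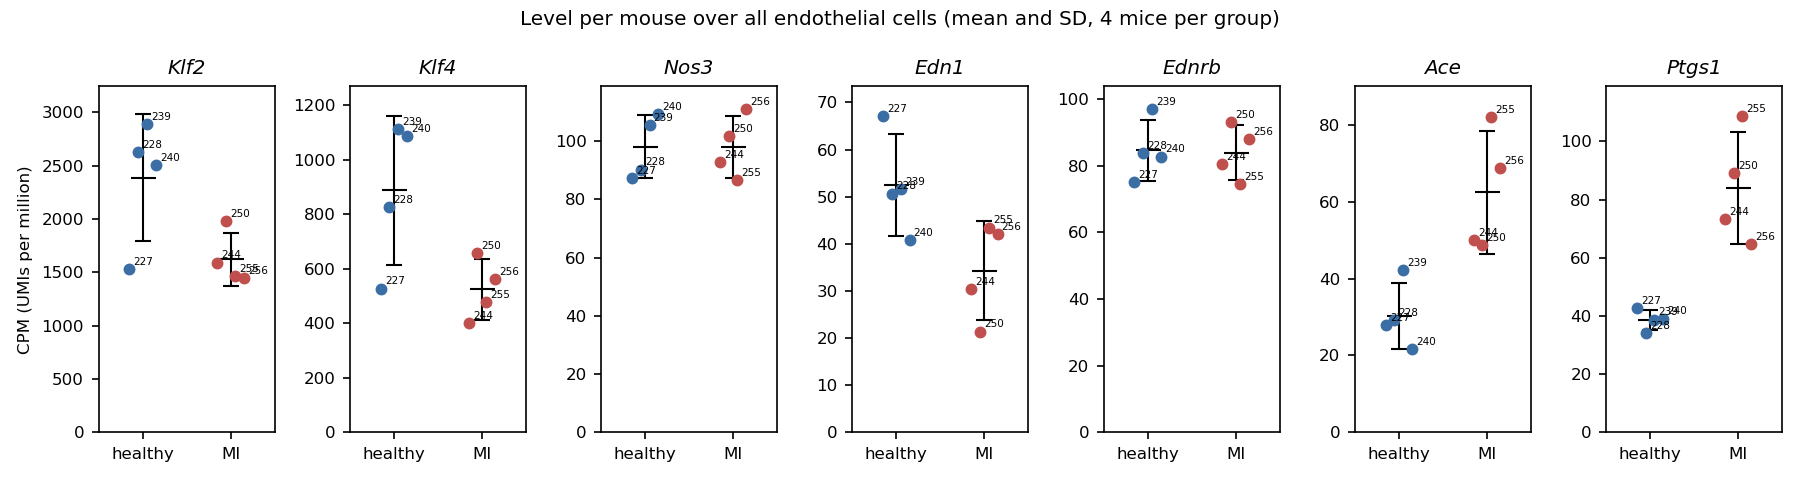
Level of each gene over all endothelial cells in CPM, with 1 point per mouse labelled by its number, blue for healthy and red for MI, and black marks for the mean and SD of 4 mice. Ace and Ptgs1 did not overlap between groups, Nos3 and Ednrb overlapped, and Healthy 227 was the lowest healthy mouse for Klf2 (1529 CPM) and Klf4 (527 CPM).

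Of the 7 genes, 5 were therefore called over all EC, 2 higher and 3 lower. This stands beside 38.3% of all 12258 genes tested (19.4% higher and 18.9% lower), so calls were common among genes in general. The share of all genes without overlap between the groups was not counted. Lack of overlap is therefore only a description of the mice, wherever it is named. The calls of Klf4, Ace and Ptgs1 held with each mouse left out in turn. The call of Klf2 was lost without Healthy 228, Healthy 239 or MI 255 (log2 fold change −0.59 to −0.54, edgeR adjusted p = 0.054 to 0.0554). The call of Edn1 was lost without Healthy 227, 228 or 239 or without MI 244 or 250 (−0.71 to −0.52, edgeR adjusted p = 0.0522 to 0.0832). With Healthy 227 and MI 244 left out together, Klf2 was at −0.80 and Klf4 at −0.92, while Edn1 lost its call (−0.51, edgeR adjusted p = 0.167).

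Cells were also compared by the share that held a UMI, after each was thinned to 1000 UMIs. Klf2 was found in 75.2% ± 8.41 of EC in healthy mice and in 64.8% ± 5.82 in MI mice (SD, n = 4 each, two-sided exact permutation test, p = 0.0571). Klf4 was found in 44.8% ± 8.87 and 33.3% ± 4.45 (exact permutation test, p = 0.0857). Neither passed 0.05, where the smallest p that 70 splits of 8 mice can give is 0.0286. That smallest p was reached by Ace, whose share was 2.44% ± 0.709 in the healthy group against 5.29% ± 1.44 in the MI group, and by Ptgs1, at 3.43% ± 0.134 against 6.58% ± 1.56 (exact permutation test, p = 0.0286 for each). With copied cells left out, the exact permutation p was 0.114 for Klf2 and 0.171 for Klf4, and it stayed at 0.0286 for Ace and Ptgs1. In unthinned cells, where MI cells were deeper, the Klf2 share was instead 4.03 percentage points and the Klf4 share 5.35 points higher in MI, and the shares of Nos3 and Ednrb were 16.3 and 11.96 points higher (exact permutation test, p = 0.0286 for each). The other shares did not pass: Edn1 was at 3.86% and 2.72% (exact p = 0.143), Nos3 at 9.03% and 9.06% (exact p = 0.971) and Ednrb at 7.46% and 7.92% (exact p = 0.457).

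In haematopoietic cells of the same libraries, which should lack Nos3, its share was 0.518% of 193 healthy and 2.21% of 1177 MI cells, below that of EC. The median depths before thinning were 3960 and 7037 UMIs there and 1903 and 4131 UMIs in EC. Ptgs1 was in 0.974% of 308 healthy and 0.485% of 206 MI mural cells. For Ace no gated cell type was clearly free of the gene, since mural cells held it in 5.19% and 8.25% and haematopoietic cells in 4.66% and 4.25%. Among fibroblasts, 15.4% of 26 healthy and 13.6% of 59 MI cells held Ace. Nor was Ptgs1 absent from haematopoietic cells, at 4.15% in healthy and 4.50% in MI mice. Edn1 was in 5.19% and 3.40% of mural and in 1.55% and 1.02% of haematopoietic cells, and Ednrb in 6.17% and 5.34% of mural and in 2.59% and 3.14% of haematopoietic cells. Klf2 was in 69.9% and 40.8% of haematopoietic and in 66.2% and 52.4% of mural cells, and Klf4 in 32.6% and 18.9% of haematopoietic and in 42.5% and 31.6% of mural cells. The median depths of mural cells before thinning were 2819.5 and 5719 UMIs. The healthy endothelial shares of Ace and Ptgs1 were below the haematopoietic ones, and those of Edn1 in both groups below the mural ones, so these shares cannot by themselves be read as expression. The levels of Ace, Ptgs1 and Edn1 differed between the endothelial classes described next.

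EC were then sorted into classes by marker UMIs in the thinned cells. Arterial cells held Gja4, which encodes connexin 37, and capillary cells held Car4, a carbonic anhydrase. A further class held Nr2f2, the transcription factor that specifies veins, and the Plvap-high class held at least 2 UMIs of Plvap, which forms the diaphragms of fenestrae and caveolae. The Plvap-high gate excluded Gja4 but not Nr2f2 or Car4, while the other gates asked for under 2 Plvap UMIs. Cells rich in Plvap that held Nr2f2 were thus counted as Plvap-high. In MI mice Nr2f2 averaged 164 CPM in Plvap-high, 391 CPM in Nr2f2 and 16.8 CPM in capillary cells. Of 27182 EC with at least 1000 UMIs, 7703 fell into a class, 1876 arterial, 3852 capillary, 857 Nr2f2 and 1118 Plvap-high. Many sat at the edge of their gate, with exactly 1 UMI of the gate gene in 1296 arterial, 2952 capillary and 755 Nr2f2 cells, and exactly 2 of Plvap in 490 Plvap-high cells. Markers that the gates had not used set the arterial class apart, with 10 of 10, Gja5 and Sox17 among them, highest there in 8 of 8 mice. In the capillary class 7 of 8 markers were highest in 8 of 8 mice, and Btnl9 in 4. Of 8 venous markers, Vcam1, Fmo2 and Cysltr1 were highest in the Nr2f2 class in 8 of 8 mice, Ephb4 in 7, Vwf in 5, Selp and Nrp2 in 4 and Ackr1 in 1. With this division among its markers, the class is called by its gate gene. It also held cells with lymphatic markers, of which 5 genes summed to 527, 58.6, 4707 and 3400 CPM in the Nr2f2 cells of Healthy 227, 228, 239 and 240 and to 47.1, 397, 191 and 3691 CPM in those of MI 244, 250, 255 and 256. Cells with at least 2 UMIs of these markers numbered 1 to 4 per mouse in both groups, which was 1.89% to 6.15% of the healthy and 0.885% to 3.03% of the MI cells of the class. Healthy mice had 3 to 5 Plvap-high cells each and MI mice 99 to 535, so no healthy level is given for that class.

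In healthy mice, Klf2 and Klf4 were highest in the arterial class. Klf2 was at 2761, 3974, 3924 and 3495 CPM in the arterial cells of Healthy 227, 228, 239 and 240, at 2134, 2694, 2760 and 2754 CPM in their Nr2f2 cells, and at 1300, 2200, 2733 and 2350 CPM in their capillary cells. Each mouse had its highest level in the arterial class. With the mouse as a block, arterial exceeded capillary cells by 0.71 on the log2 scale (SE 0.0837, edgeR adjusted p = 1.04e-08) and Nr2f2 cells by 0.48 (SE 0.0908, adjusted p = 0.000188). The latter call was lost with no mouse block (0.46, adjusted p = 0.132). The Nr2f2 and capillary classes were not separated (0.23, 95% interval 0.048 to 0.41, adjusted p = 0.137), but were with DESeq2 (0.31, adjusted p = 0.0468) or without Healthy 239 (0.34, edgeR adjusted p = 0.0394). Klf4 was at 1072, 1370, 1608 and 1817 CPM in arterial, 1041, 1054, 1173 and 1142 CPM in Nr2f2 and 434, 658, 925 and 1012 CPM in capillary cells. All neighbours in this order differed, arterial from Nr2f2 cells by 0.43 (adjusted p = 0.00675) and Nr2f2 from capillary cells by 0.51 (adjusted p = 0.00114), but the first was lost without Healthy 239 or 240 (0.38 and 0.31, adjusted p = 0.0656 and 0.137) and the second without Healthy 227 (0.32, adjusted p = 0.0685). With no mouse block both were lost (0.42 and 0.51, adjusted p = 0.264 and 0.191), and the first also with DESeq2 (0.35, adjusted p = 0.0551). In healthy arterial cells, 20 genes known to be induced by dissociation and early stimulation summed to between 14569 and 21421 CPM. Their sums were between 11210 and 15905 CPM in healthy Nr2f2 and between 8086 and 14837 CPM in healthy capillary cells. Their part in the order of Klf2 and Klf4 over classes was not tested.

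Ace and Edn1 were the genes of the 7 with the widest gap between arterial and capillary cells. Ace was at 166, 108, 131 and 112 CPM in arterial cells, at 57.9, 63.9, 53.7 and 15.02 CPM in Nr2f2 cells and at 6.96, 12.4, 16.4 and 7.16 CPM in capillary cells of Healthy 227, 228, 239 and 240. Arterial and capillary cells differed 11.2-fold (log2 difference 3.49 ± 0.218 SE, edgeR adjusted p = 2.22e-16), and arterial and Nr2f2 cells 2.71-fold (1.44, adjusted p = 0.000273). The genes most like Ace over the 28 sums were Igfbp4 (Pearson r = 0.93), Sorbs2 (0.90) and Slc3a2 (0.89). Edn1 was at 257, 191, 134 and 189 CPM in arterial cells and at 28.6, 6.21, 16.4 and 12.9 CPM in capillary cells. These differed 11.4-fold (log2 difference 3.51 ± 0.249 SE, edgeR adjusted p = 1.1e-14). In Nr2f2 cells it was at 161, 112, 184 and 30.0 CPM, above capillary cells (2.75, adjusted p = 4.94e-07) and not separated from arterial cells (0.76, 95% interval 0.21 to 1.32, adjusted p = 0.078). These Nr2f2 values rest on few cells. With the cell richest in Edn1 left out of each mouse and class, they were 39.4, 80.4, 94.2 and 10.2 CPM, against 4.45 to 26.4 CPM in capillary cells, and Healthy 240 lay below its own capillary level of 11.5 CPM. The difference from capillary cells was then 1.79 (adjusted p = 0.0121), and arterial cells were above Nr2f2 cells (1.68, adjusted p = 0.00063). This was also called with no filter on low counts (0.78, adjusted p = 0.00129), with the gate on unthinned UMIs (1.20, adjusted p = 5.02e-07) and without Healthy 239 (1.15, adjusted p = 0.0161).

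Ptgs1 had another order. It was at 141, 101, 146 and 210 CPM in the Nr2f2 cells of the healthy mice, at 18.6, 17.7, 25.7 and 32.2 CPM in their capillary cells and at 12.4, 15.2, 15.3 and 6.2 CPM in their arterial cells. The arterial values rest on 2 to 10 UMIs per mouse. Nr2f2 cells exceeded capillary cells 6.03-fold (log2 difference 2.59 ± 0.232 SE, edgeR adjusted p = 5.67e-11) and arterial cells 11.1-fold (−3.47 for arterial against Nr2f2, adjusted p = 4.3e-11). Arterial and capillary cells were not separated (−0.88, 95% interval −1.56 to −0.19, adjusted p = 0.0853), although 4 of 18 alternatives called arterial cells lower, namely no filter on low counts, the gate on unthinned UMIs and leaving out MI 244 or MI 256 (−0.90 to −0.64, adjusted p = 0.0436 to 0.0466). The genes most like Ptgs1 were Calcrl, a receptor of vasodilator peptides (Pearson r = 0.92 over 28 sums), the gate gene Nr2f2 itself (0.91), whose level over these sums was set by the gates, and Prcp (0.91).

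Ednrb had its highest healthy level in capillary cells, at 95.1, 96.7, 111 and 110 CPM, against 58.0, 28.2, 76.4 and 58.9 CPM in arterial and 19.3, 37.3, 38.3 and 80.1 CPM in Nr2f2 cells. The Nr2f2 values rest on only 3, 7, 5 and 16 UMIs in Healthy 227, 228, 239 and 240. It was lower in arterial than in capillary cells (−0.92 ± 0.216 SE, edgeR adjusted p = 0.00171) and lower in Nr2f2 than in capillary cells (−1.23 ± 0.316 SE, adjusted p = 0.00921). The first call was lost without Healthy 228 (−0.71, adjusted p = 0.052) and the second without Healthy 227, 228 or 239 (−1.16 to −1.03, adjusted p = 0.0553 to 0.0848). The first was also lost with 2 UMIs of the gate genes (−0.76, adjusted p = 0.165) and the second with no mouse block (−1.20, adjusted p = 0.066). Its most similar genes were the pan-endothelial Tie1 (Pearson r = 0.79), Dgkz (0.79) and Egfl7 (0.76). Nos3 ranged from 86.7 to 145 CPM over arterial, from 72.7 to 108 CPM over capillary and from 69.0 to 115 CPM over Nr2f2 cells of the healthy mice. Arterial cells were above capillary cells (0.44 ± 0.143 SE, edgeR adjusted p = 0.0302), a call lost without Healthy 227, 239 or 240 or MI 244 (0.32 to 0.47, adjusted p = 0.0556 to 0.3). It was also lost with no mouse block (0.45, adjusted p = 0.159), the gate on unthinned UMIs (0.25, adjusted p = 0.127) and a Plvap limit of 3 (0.42, adjusted p = 0.0566). With 2 UMIs of the gate genes this Nos3 difference changed sign (−0.069). Arterial and Nr2f2 cells differed in Nos3 only with a Plvap limit of 1 (0.72, adjusted p = 0.046), of the alternatives run. The genes most like Nos3 were Gemin7 (Pearson r = 0.74), Prkag1 (0.69) and Parvb (0.66).

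Healthy arterial and capillary cells differed in 6 of the 7 genes (13.8% of all 10578 genes tested), Nr2f2 and capillary cells in 5 (6.58%) and arterial and Nr2f2 cells in 4 (8.98%). In MI mice, arterial and capillary cells differed in 7 (15.8% of all genes), Nr2f2 and capillary cells in 4 (16.3%) and arterial and Nr2f2 cells in 3 (19.5%). The 7 MI calls between arterial and capillary cells included small differences, with 0.28 for Klf4 (edgeR adjusted p = 0.0342), 0.23 for Klf2 (0.046), 0.37 for Nos3 (0.0174) and −0.49 for Ednrb (0.0247). Leaving out 1 mouse cut the 7 calls to as few as 3. The calls of Klf2 were lost without any of Healthy 228, 239 or 240 or MI 244, 255 or 256, those of Klf4 without any MI mouse, those of Nos3 without MI 244, 250 or 255, and those of Ednrb without MI 244, 255 or 256. The Klf2 call was also lost with the lymphatic-marked cells (0.22, adjusted p = 0.0561) or the cells richest in Edn1 (0.23, adjusted p = 0.0562) left out. All 4 of these calls were lost with DESeq2 (adjusted p = 0.052 to 0.112) and with no mouse block (adjusted p = 0.133 to 0.581), those of Klf2 and Klf4 also with a Plvap limit of 3 (adjusted p = 0.103 and 0.122), and those of Klf4 and Nos3 with 2 UMIs of the gate genes (adjusted p = 0.13 and 0.255). Over all 8 fits with 1 mouse left out the differences were 0.18 to 0.29 for Klf2, 0.22 to 0.29 for Klf4, 0.27 to 0.39 for Nos3 and −0.85 to −0.26 for Ednrb. Between Nr2f2 and capillary MI cells, the Edn1 call was lost without MI 250 (0.85, adjusted p = 0.15) and with the gate on unthinned UMIs (0.45, adjusted p = 0.199). The Ednrb call was lost there without MI 244 or MI 256, with DESeq2 and with no mouse block (−0.57 to −0.39, adjusted p = 0.102 to 0.224). That gate added calls of Klf2 (0.20, adjusted p = 0.0109) and Klf4 (0.27, adjusted p = 0.00318), and no filter on low counts one of Klf2 (0.19, adjusted p = 0.0371).

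**Figure D2:**
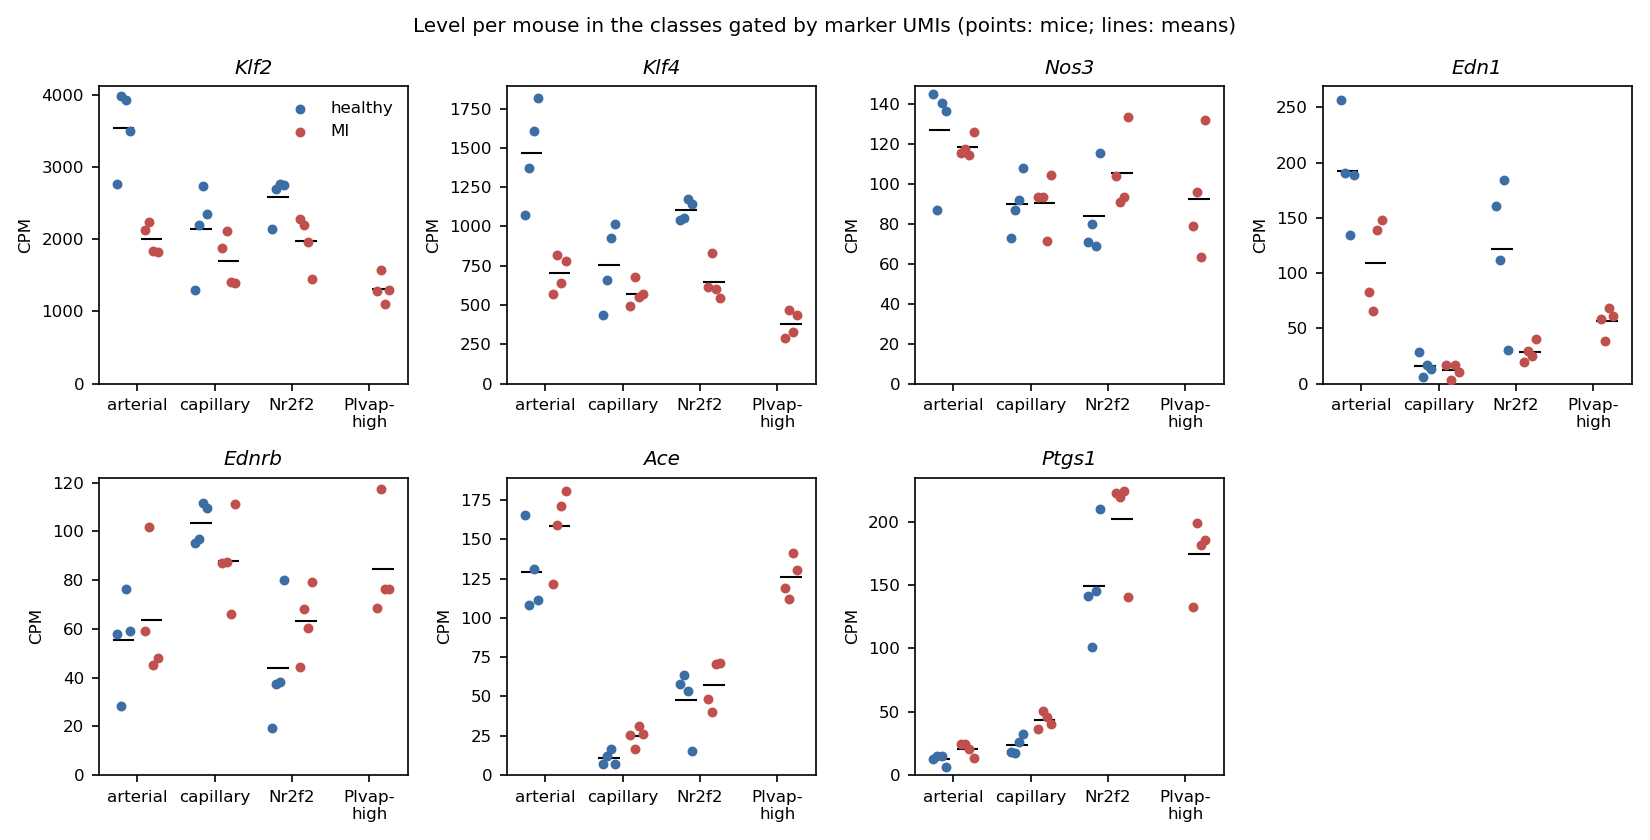
Level in CPM of each gene in the arterial, capillary, Nr2f2 and Plvap-high classes, with 1 point per mouse, blue for healthy and red for MI, and a line at each group mean. Healthy mice have no Plvap-high values because each held 5 or fewer such cells. Ace was highest in arterial cells in every mouse and Edn1 in every mouse but Healthy 239 (184 CPM in Nr2f2 and 134 CPM in arterial cells), Ptgs1 was highest in Nr2f2 or Plvap-high cells, and arterial Klf2 and Klf4 do not overlap between groups.

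The Plvap-high cells of MI mice held less of both Klf factors than the capillary and Nr2f2 cells. Klf2 was at 1274, 1571, 1103 and 1299 CPM there in MI 244, 250, 255 and 256, and Klf4 at 292, 470, 327 and 437 CPM. Against capillary cells of the same mice, Klf2 was lower by 0.33 on the log2 scale (−0.33, edgeR adjusted p = 0.00183) and Klf4 by 0.56 (−0.56, adjusted p = 7.19e-06). Against Nr2f2 cells the differences were −0.52 (adjusted p = 8.58e-06) and −0.72 (adjusted p = 2.92e-07). The Klf2 call against capillary cells was lost with the gate on unthinned UMIs (−0.11, adjusted p = 0.169), with a Plvap limit of 1 UMI (−0.17, adjusted p = 0.0866) and with no mouse block (−0.35, adjusted p = 0.163), and the one against Nr2f2 cells with no mouse block (−0.52, adjusted p = 0.0571). The Klf4 difference from capillary cells was as small as −0.21 with the gate on unthinned UMIs (adjusted p = 0.0149). In MI mice the 20 dissociation genes summed to between 8895 and 10510 CPM in Plvap-high cells. Their sums were between 11199 and 14386 CPM in capillary and between 9121 and 12855 CPM in Nr2f2 cells. Mural markers summed to between 63.5 and 283, between 41.7 and 97.8 and between 38.3 and 58.2 CPM in the same order. The part of these genes in the differences was not tested. Ace, Ptgs1 and Edn1 were higher in Plvap-high than in capillary cells. Ace was at 119, 112, 142 and 131 CPM, which was 5.57-fold the capillary level (2.48 ± 0.148 SE, edgeR adjusted p = 2.64e-17) and 2.33-fold the Nr2f2 level (1.22, adjusted p = 3.88e-09). Ptgs1 was at 133, 199, 181 and 185 CPM, above capillary cells (2.003 ± 0.125 SE, adjusted p = 8.2e-17) and not separated from Nr2f2 cells (−0.18, 95% interval −0.38 to 0.031, adjusted p = 0.292). It was called lower than in Nr2f2 cells with a Plvap limit of 1 (−0.39, adjusted p = 0.00383) and without MI 256 (−0.31, adjusted p = 0.0271).

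Edn1 in the Plvap-high class was at 58.6, 38.6, 68.5 and 61.0 CPM, above both capillary cells (2.49, edgeR adjusted p = 6.9e-10) and Nr2f2 cells (1.14, adjusted p = 0.000468). Ednrb was at 68.6, 117, 76.5 and 76.2 CPM, with MI 250 far above the others, and exceeded Nr2f2 cells by 0.51 (adjusted p = 0.0286). That call was lost without MI 244, 250 or 255 (0.37 to 0.53, adjusted p = 0.0825 to 0.187), with DESeq2 (0.48, adjusted p = 0.169), with no mouse block (0.48, adjusted p = 0.24) and with a Plvap limit of 3 (0.24, adjusted p = 0.457). Nos3 was at 78.9, 95.7, 63.5 and 132 CPM and was not separated from either class. Plvap-high cells thus differed from capillary cells in 5 of the 7 genes (29.5% of all genes) and from Nr2f2 cells in 5 (15.8%). Of 9 other markers of this class, 8 were highest in it in 4 of 4 MI mice, among them Lrg1, Ackr1 and Selp, and Vwf in 3.

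Within the arterial class, Klf2, Klf4 and Edn1 were lower in MI, so that 3 of the 7 genes were called against 14.1% of all 8059 genes tested (7.35% lower). Klf2 was at 2124, 2241, 1835 and 1820 CPM in the arterial cells of MI 244, 250, 255 and 256, below all healthy mice. The fall was 1.84-fold (−0.88 ± 0.129 SE, edgeR adjusted p = 0.000288). Klf4 was at 572, 817, 639 and 779 CPM, also below all healthy mice, a fall of 2.18-fold (−1.12 ± 0.155 SE, adjusted p = 0.000183). Both calls held with each mouse left out. Edn1 was at 82.7, 65.8, 139 and 148 CPM and overlapped the healthy mice, of which Healthy 239 was at 134 CPM (−0.83 ± 0.237 SE, adjusted p = 0.0263). That call was lost without Healthy 227, 228 or 240 or MI 244 or 250 (−0.83 to −0.65, adjusted p = 0.0613 to 0.0817) and with 2 UMIs of the gate genes (−1.07, adjusted p = 0.057). Ace was not called (0.26, adjusted p = 0.32), nor were Ptgs1 (0.62, adjusted p = 0.233), Nos3 (−0.15, adjusted p = 0.572) and Ednrb (0.10, adjusted p = 0.873). Among arterial cells, 20 genes known to be induced by dissociation and early stimulation summed to between 14569 and 21421 CPM in healthy and between 10403 and 14152 CPM in MI mice, without overlap, and their part in the falls of Klf2, Klf4 and Edn1 was not tested in this class. Haematopoietic markers summed to between 20.7 and 108.5 CPM in healthy and between 279 and 464.5 CPM in MI arterial cells, without overlap, and mural markers to between 118 and 323 and between 98.8 and 167 CPM. Plvap itself was at 3.1 to 16.8 CPM in healthy and at 68.4 to 299 CPM in MI arterial cells, and the other Plvap-high markers summed to between 375 and 619 and between 749 and 1598 CPM. The part of all these markers in the arterial changes was not tested.

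Within the capillary class the called genes were Ace and Ptgs1, 2 of the 7 against 14.9% of all 8838 genes (6.89% higher). Ptgs1 was at 36.7, 50.3, 45.8 and 40.7 CPM in the MI mice, above all healthy mice (1.75-fold, 0.81 ± 0.198 SE, edgeR adjusted p = 0.0148), and lost its call without MI 250 (0.70, adjusted p = 0.074). Ace was at 25.2, 16.4, 31.1 and 26.4 CPM, of which MI 250 lay just under Healthy 239 (1.05 ± 0.304 SE, adjusted p = 0.0328). That call was lost without any of Healthy 227, 228 or 240 or MI 244, 255 or 256 (0.88 to 1.13, adjusted p = 0.0502 to 0.0829). Klf2 was at 1876, 2114, 1405 and 1387 CPM in the MI mice and overlapped the healthy range (−0.41, 95% interval −0.82 to 0.0058, adjusted p = 0.168). Klf4 was at 493, 677, 548 and 567 CPM (−0.47, 95% interval −0.90 to −0.035, adjusted p = 0.132). Edn1 was at 16.8, 3.51, 16.5 and 10.7 CPM, on 9 to 22 UMIs per mouse, and overlapped the healthy range (−0.73, 95% interval −1.72 to 0.27, adjusted p = 0.313). It was called lower when the gate read unthinned cells (−1.16, adjusted p = 0.00633). Nos3 (−0.03, adjusted p = 0.923) and Ednrb (−0.26, adjusted p = 0.225) were not called. For Ednrb, 3 of 4 MI mice lay below all healthy mice, and it was called lower without MI 256 (−0.41, adjusted p = 0.0388). Without Healthy 227, whose capillary cells were the lowest of the healthy group for both, Klf2 (−0.59, adjusted p = 0.0192) and Klf4 (−0.67, adjusted p = 0.0103) were called. The dissociation genes summed to between 8086 and 14837 CPM in healthy and between 11199 and 14386 CPM in MI capillary cells, and haematopoietic markers to between 17.01 and 134 and between 272 and 440 CPM. Markers of the Plvap-high class also moved with these calls. In capillary cells Plvap was at 0 to 2.66 CPM in healthy and 35.7 to 103 CPM in MI mice, and 9 other Plvap-high markers summed to between 132 and 205 and between 331 and 507 CPM, both without overlap. The gate gene Car4 was at 889 to 967 CPM in healthy and 491 to 673 CPM in MI capillary cells. Fibroblast markers summed to between 2.15 and 9.28 CPM in healthy and between 15.2 and 41.4 CPM in MI capillary cells, without overlap. The part of these and of the haematopoietic markers in the capillary changes was not tested.

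In the Nr2f2 class, Klf4, Klf2 and Edn1 were called lower, 3 of the 7 against 9.49% of all 5807 genes (5.55% lower). Klf4 was at 616, 829, 599 and 547 CPM in the MI mice, below all healthy mice (−0.87 ± 0.136 SE, edgeR adjusted p = 0.00125). Klf2 was at 2277, 2192, 1962 and 1453 CPM (−0.50 ± 0.138 SE, adjusted p = 0.0312), and lost its call without Healthy 228, 239 or 240 or MI 255 or 256 (−0.47 to −0.37, adjusted p = 0.0513 to 0.0957) and without the copied cells (−0.42, adjusted p = 0.0806) or with the gate on unthinned UMIs (−0.48, adjusted p = 0.0589). Edn1 was at 19.4, 29.2, 25.2 and 40.3 CPM in the MI mice, of which MI 256 lay above Healthy 240 (−2.14 ± 0.382 SE, adjusted p = 0.0025). Few cells carried the healthy level. The 49 Nr2f2 cells of Healthy 227 held 25 Edn1 UMIs, of which 19 were in 1 cell, and the 52 cells of Healthy 239 held 24, of which 12 were in 1 cell. With the cell richest in Edn1 left out of each mouse, the healthy levels were 39.4, 80.4, 94.2 and 10.2 CPM and the call was lost (−1.42, adjusted p = 0.0607). Ptgs1 was at 223, 220, 224 and 141 CPM in the MI Nr2f2 cells and was not called (0.32, adjusted p = 0.384), and Ace was at 48.5, 40.1, 70.4 and 71.3 CPM (0.21, adjusted p = 0.779), where the healthy values rest on as few as 3 UMIs. Nos3 (0.17, adjusted p = 0.701) and Ednrb (0.34, adjusted p = 0.591) were not called either. The dissociation genes ranged from 11210 to 15905 CPM in healthy and from 9121 to 12855 CPM in MI Nr2f2 cells.

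With the lymphatic-marked cells left out of the Nr2f2 class, a choice made after the marker sums had been seen, the lymphatic sum was 0 to 63.7 CPM in healthy and 4.18 to 24.2 CPM in MI mice. The calls of Klf4 (−0.88, edgeR adjusted p = 0.000604), Klf2 (−0.50, adjusted p = 0.022) and Edn1 (−2.15, adjusted p = 0.00213) were kept. Markers of other cells were also summed in this class before that step. Mural markers summed to between 40.1 and 321 CPM in healthy and between 38.3 and 58.2 CPM in MI mice, fibroblast markers to between 12.9 and 170 and between 11.1 and 43.4 CPM, and haematopoietic markers to between 19.3 and 123 and between 262 and 438 CPM. Plvap was at 6.43 to 122 CPM in healthy and 287 to 582 CPM in MI Nr2f2 cells, and the other Plvap-high markers summed to between 688 and 1288 and between 1402 and 2704 CPM, both without overlap. The part of all these markers in the changes of the class was not tested.

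**Figure D3:**
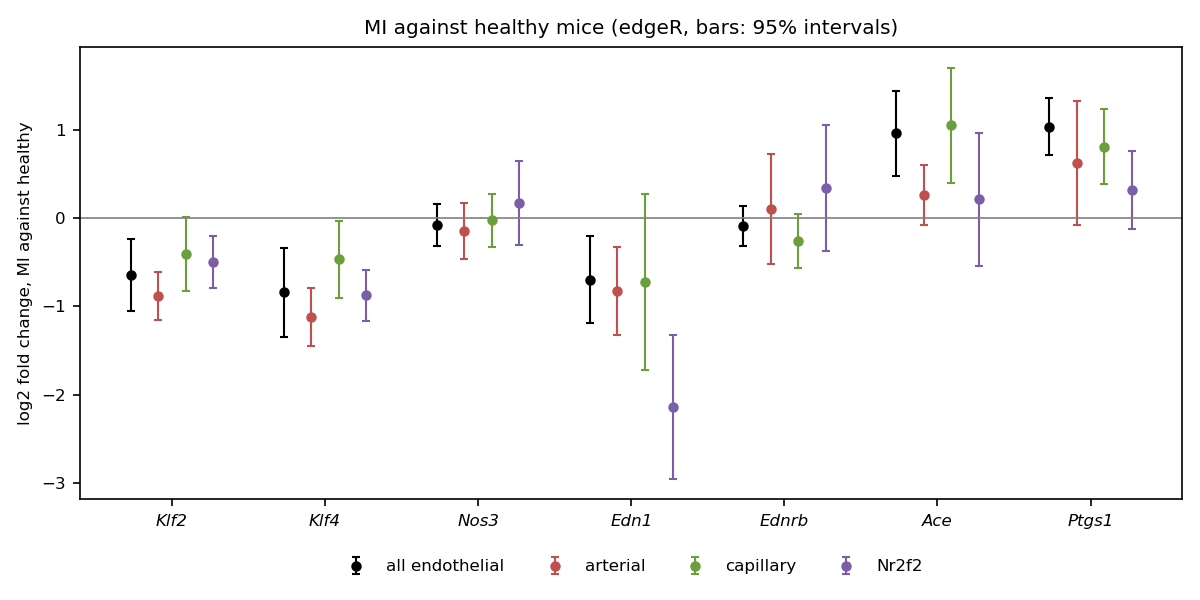
Log2 fold change of MI against healthy mice for each gene, with 95% intervals, over all endothelial cells (black) and within the arterial (red), capillary (green) and Nr2f2 (purple) classes. Klf4 is lowest in arterial cells at −1.12, and the Edn1 value of −2.14 in Nr2f2 cells rests on few cells.

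The difference between classes was itself tested, as a class by condition term against capillary cells. The MI change of Klf4 was more negative in arterial than in capillary cells by 0.66 on the log2 scale (−0.66, 95% interval −0.93 to −0.40, edgeR adjusted p = 0.00492). For Klf2 the term was −0.48 (95% interval −0.71 to −0.24, adjusted p = 0.0496). These 2 of the 7 genes stand beside 46 of 10578 genes in all, 0.435% (0.189% in this direction). The 20 dissociation genes summed to a mean of 18802 CPM in healthy and 12475 CPM in MI arterial cells. In capillary cells their mean sums were 12287 and 12587 CPM, and their part in the 2 terms was not tested. The Klf4 call held with each mouse left out. It was lost when the gate read unthinned cells (−0.34, adjusted p = 0.0636) or asked for 2 UMIs of the gate genes (−0.53, adjusted p = 0.31) and with no mouse block (−0.66, adjusted p = 0.769). The Klf2 call was kept in 7 of 18 alternatives. It was lost without Healthy 227, 228 or 240 or MI 244 or 250 (−0.53 to −0.38, adjusted p = 0.0563 to 0.269) and with no mouse block (−0.48, adjusted p = 0.903). It was also lost with 2 UMIs of the gate genes (−0.34, adjusted p = 0.592), a Plvap limit of 3 (−0.47, adjusted p = 0.115) or 1 (−0.42, adjusted p = 0.0602), the copied cells left out (−0.45, adjusted p = 0.0933) or the cells richest in Edn1 left out (−0.45, adjusted p = 0.0896). In the matching test of Nr2f2 cells, 0 of the 7 genes were called by edgeR and 0 by DESeq2 (0.208% of all genes by edgeR), with 2 at an unadjusted p under 0.05, Klf4 (−0.36, adjusted p = 0.519) and Edn1 (−1.39, adjusted p = 0.421). This Edn1 term was called in 2 of 16 alternatives, the gate on unthinned UMIs and no filter on low counts. Among the arterial terms that were not called, Ace was also at an unadjusted p under 0.05 (−0.76, 95% interval −1.35 to −0.18, edgeR adjusted p = 0.363).

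The 2 Klf factors are also induced when cells are taken from tissue, so their levels were read in cells low and high in 4 genes of that response, Fos, Egr1, Atf3 and Hspa1a. In cells with 2 or more UMIs of these, Klf2 was at 3311 ± 806 CPM in healthy and 2286 ± 315 CPM in MI mice (SD, n = 4 each). In cells with under 2 it was at 1569 ± 431 and 1051 ± 112 CPM. Klf4 was at 1389 ± 494 and 816 ± 112 CPM in the first and at 469 ± 162 and 264 ± 35.3 CPM in the second. Both factors were higher in the richer cells of every mouse. Fitted over cells with under 2 such UMIs alone, Klf2 (−0.65, edgeR adjusted p = 0.0135) and Klf4 (−0.90, adjusted p = 0.0072) were lower in MI. Edn1 was not called there (−0.33, adjusted p = 0.273), with 34.4 ± 7.03 CPM in healthy and 28.9 ± 8.41 CPM in MI mice, against 74.8 ± 20.7 and 41.0 ± 13.3 CPM in the richer cells. Over all EC the 20 dissociation genes summed to between 9344 and 15514 CPM in healthy mice, lowest in Healthy 227, and to between 9962 and 13255 CPM in MI mice. Of these 20 genes, 1 was called higher, Socs3, and 4 lower, Jund, Btg2, Hspa1b and Hsp90aa1, beside 19.4% and 18.9% of all genes. The part of this response in the changes of the 7 genes was not tested beyond these values.

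The levels of both factors were also read outside EC. In the haematopoietic cells of the same libraries, Klf2 was at 1832 ± 411 CPM in healthy and 819 ± 228 CPM in MI mice, and Klf4 at 612 ± 213 and 260 ± 40.4 CPM (SD, n = 4 each), without overlap between groups for either. In mural cells Klf2 was at 1823 ± 522 and 1135 ± 176 CPM and Klf4 at 756 ± 343 and 519 ± 109 CPM, with overlap. These levels rest on 205 healthy and 1177 MI haematopoietic cells and on 326 and 206 mural cells, and the differences were not tested.

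**Figure D4:**
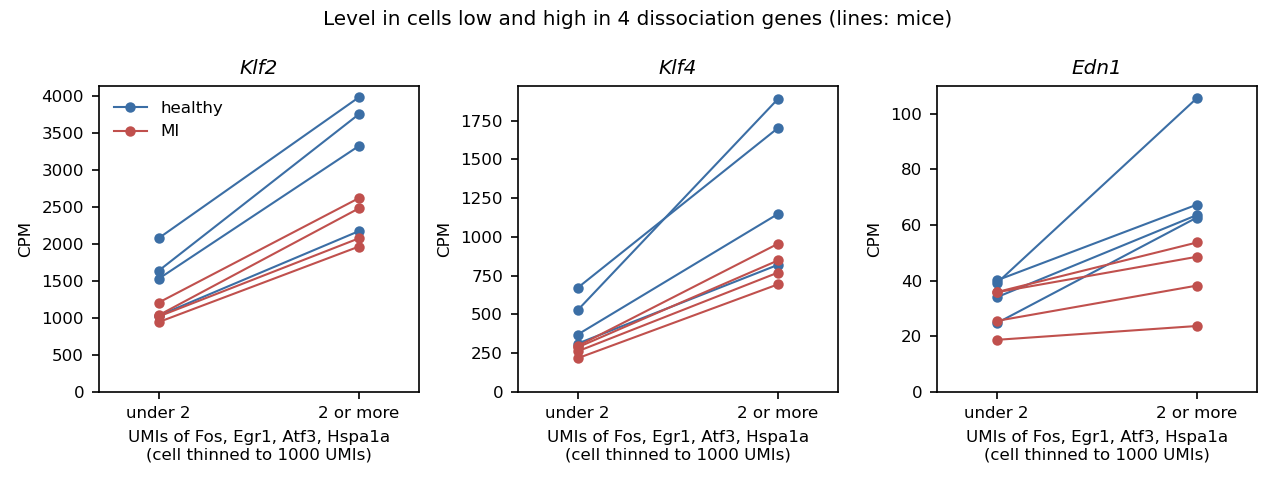
Level in CPM of Klf2, Klf4 and Edn1 in cells with under 2 and with 2 or more UMIs of Fos, Egr1, Atf3 and Hspa1a, with 1 line per mouse, blue for healthy and red for MI. Each line rises, and Klf2 averaged 1569 and 3311 CPM in healthy mice.

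The pathway genes around the 7 were counted in the same fit over all EC, where the median log2 fold change of all genes was −0.02 and 19.4% of all genes were called higher and 18.9% lower. The lists are short, and their counts are given beside these shares as a description. Of 11 genes known to respond to shear or to Klf factors, 9 were tested, 4 were lower and 1 higher, with a median of −0.26. The lower ones included the anticoagulant receptor Thbd (−0.84, edgeR adjusted p = 0.00201), the water channel Aqp1 (−0.76, adjusted p = 0.0101) and the lipid phosphatase Plpp3 (−0.60, adjusted p = 0.0024). The higher one was Dhh, at 3.05 CPM in healthy and 6.98 CPM in MI mice. Of 20 genes that sense flow or carry its signal to MEF2, 5 were lower and 0 higher (median −0.19), namely the flow-sensing receptor Kdr (−0.85, adjusted p = 0.00104), Gna11 (−0.40), Mef2a (−0.38), Mef2c (−0.36) and Mef2d (−0.46). The kinases Map3k3 and Mapk7, which encode MEKK3 and ERK5, were at −0.44 (adjusted p = 0.083) and −0.04 (adjusted p = 0.815). Of 11 other Klf genes, 6 were lower and 0 higher (median −0.67), with Klf9 at −1.17 (adjusted p = 0.000571), Klf13 at −0.85 (adjusted p = 0.000154) and Klf3 at −0.84 (adjusted p = 0.000256). The 5 of 20 lower in the flow list are near the 18.9% of all genes.

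Of 19 tested genes of nitric oxide synthesis and signalling out of 23, 7 were higher and 2 lower (median 0.04), beside 19.4% and 18.9% of all genes. Cav2, a caveolin, was at 1.05 (edgeR adjusted p = 0.0153) and Calm3, a calmodulin gene, at 0.63 (adjusted p = 0.000658). The lower ones were the chaperone Hsp90ab1 (−0.53, adjusted p = 0.000638) and Spr (−0.45, adjusted p = 0.0034), an enzyme of tetrahydrobiopterin synthesis. Cav1, the main caveolin and an inhibitor of Nos3, was at 0.0016 (adjusted p = 0.99). In the endothelin list 2 of 6 genes were tested, where Ece2 was higher (0.62, adjusted p = 0.00838) and Ece1, the main converting enzyme, was at −0.10 (adjusted p = 0.438). The receptor Ednra was at 0.135 CPM in healthy and 0.395 CPM in MI mice and was not tested. Of 12 angiotensin and kinin genes, 2 were tested and the peptidase Anpep was higher, at 0.739 CPM in healthy and 4.45 CPM in MI mice.

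The prostanoid list had 7 of 17 genes tested, with 2 higher and 2 lower (median −0.27), beside the 19.4% and 18.9% of all genes. Slco2a1, which carries prostaglandins into cells, was at a mean of 7.15 CPM in healthy and 43.4 CPM in MI mice and rose by a fitted 5.7-fold (log2 fold change 2.51, edgeR adjusted p = 0.000267), and Ptgis, prostacyclin synthase, was higher at a low level, 0.746 against 2.72 CPM. Ptger4, a receptor for prostaglandin E2, was lower (−1.09, adjusted p = 0.00679), as was Hpgds (−1.18, adjusted p = 0.00421). The other cyclooxygenase gene, Ptgs2, was at 0 CPM in the mean of the healthy group and 0.414 CPM in the MI group and was not tested. The markers of the capillary class were lower in 8 of 8 and those of the Plvap-high class higher in 9 of 9 in the same fit. Of the 8 venous markers, 5 were higher and 1 lower. These 8 summed to between 559 and 699 CPM in healthy and between 756 and 1043 CPM in MI mice. Of the 10 arterial markers, 1 was higher and 3 lower. The part of these class markers in the changes of the 7 genes over all EC was not tested beyond the values within classes given above.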

How the data were processed

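The authors deposited 1 table of raw UMI counts per gene and cell for 8 mice, without normalization; all values were whole numbers. Reads had been aligned to mm10 with Cell Ranger, and R 3.5.2 and Seurat 2.3 are named in the submitters' processing notes; cells under 400 genes or over 20% mitochondrial UMIs had been removed by the authors. 3′ counts do not depend on transcript length, and UMIs remove PCR copies, but free RNA in droplets stays in them. Groups came from the sample labels. Separate mice are the replicates, and cells were not treated as such.

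Cells were gated, thinned to 1000 UMIs (which left out 1578 healthy and 0 MI EC) and put into classes with Python 3.11.15, numpy 2.4.6 and scipy 1.17.1. No doublet caller was run. The arterial gate asked for Gja4, with no Nr2f2 and under 2 Plvap UMIs. The Nr2f2 and capillary gates asked for no Gja4 and under 2 Plvap UMIs, and the capillary gate also for no Nr2f2. The Plvap-high gate asked for no Gja4 and did not exclude Nr2f2 or Car4. Unthinned counts were summed per mouse and class of at least 20 cells and tested with edgeR 4.0.16 (TMM, filterByExpr, quasi-likelihood test, Benjamini-Hochberg adjustment over all genes at 0.05). Differences between classes were fitted over all sums with the mouse as a block, since the classes of a mouse come from the same animal. No healthy mouse had 20 Plvap-high cells, so that class had sums from MI mice only. For shares of cells, the 8 mice were permuted between groups (exact, two-sided). Counts were also simulated with the same fixed dispersion for every gene and no mouse effect. In these, 91% of genes changed 2-fold were recovered over all EC (12178 genes). The share was 60% for arterial against capillary healthy cells (8697 genes) and 71.0% for MI against healthy Nr2f2 cells (5534 genes). The spread between the real mice was not used, so these shares do not measure recovery in the data. Alternatives were DESeq2 1.42.0, limma-voom (limma 3.58.1), other filters and gates, thinned cells, the Xist level as covariate and each mouse left out; 3 were added after the data had been seen (only mice with high Xist, the cell richest in Edn1 left out, lymphatic-marked cells left out). The members and gene lists were chosen with earlier results of these data known. Named were the 7 genes, at most 3 called genes per list with a mean of at least 20 CPM (largest changes first), the 3 genes most like each member (mean CPM of at least 50), and genes on which a sentence rests or where 5 or fewer were counted, the last chosen after their values were seen. Gene positions are from GENCODE on GRCm38.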

Additional observations from a re-analysis of the deposited data

Results flagged for a closer look

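In 63 sets of 4 mice, the gap of the highest or lowest mouse to its nearest neighbour was set against the range of the set, with Dixon's 95% limit for 4 samples; chance passes this in about 1 set in 20, and 4 sets passed. MI 250 was high for Ednrb in the Plvap-high class, at 117 CPM where the other MI mice lay between 68.6 and 76.5 CPM. Healthy 227 was low for Klf2 in the Nr2f2 class, at 2134 CPM where the other healthy mice lay between 2694 and 2760 CPM. Healthy 228 was low for Nos3 in arterial cells, at 86.7 CPM where the others lay between 137 and 145 CPM. MI 256 was low for Ptgs1 in the Nr2f2 class, at 141 CPM where the others lay between 220 and 224 CPM.

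The MI change differed between the arterial and capillary classes in the test of the difference itself for Klf4 (−0.66 on the log2 scale, edgeR adjusted p = 0.00492) and Klf2 (−0.48, edgeR adjusted p = 0.0496). The Klf2 term kept its call in 7 of 18 alternatives, and the Klf4 term in 15 of 18, all but the gate on unthinned UMIs, 2 UMIs of the gate genes and no mouse block. Arterial Klf2 and Klf4 were lower in 4 of 4 MI mice than in any healthy mouse, but the share of all genes separated in this way was not counted. The 20 dissociation genes had mean sums of 18802 CPM in healthy and 12475 CPM in MI arterial cells. In capillary cells these were 12287 and 12587 CPM, and their part in the 2 terms was not tested.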

How the results depend on the processing

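Depth limits low values in a class most. Healthy arterial Ptgs1 rests on as few as 2 UMIs per mouse, and healthy Nr2f2 Ace and Ednrb on as few as 3. Healthy cells were shallower than MI cells, and intervals cover the spread between 4 mice. Over all EC, the calls of Klf2, Klf4, Ace and Ptgs1 were kept with DESeq2, limma-voom, no filter, thinned cells, copied cells left out and cells low in dissociation genes. Edn1 was not called in cells low in dissociation genes (−0.33) or in the mice with high Xist (−0.51), where genes called lower numbered 1429 against 2317. In cells thinned to 1000 UMIs, Ednrb turned to 0.024, and 1359 genes were higher and 1332 lower. With single mice left out, Klf2 ranged from −0.81 to −0.54 and Edn1 from −0.82 to −0.52. No paired analysis was possible for MI against healthy mice because no mouse number is shared between the groups. Where classes of the same mice were compared, leaving the replicate block out gave fewer of the 7 genes called: in healthy mice 3 for Nr2f2 against capillary and 2 for arterial against Nr2f2, and post-MI 3 for arterial against capillary and 3 for Plvap-high against Nr2f2. Without the replicate block the class by condition terms of arterial Klf2 (−0.48) and Klf4 (−0.66) were not called, leaving 0 of 7. This stands beside 3 of 9975 genes in all in that setting, against 46 of 10578 with the block. Ednrb in Plvap-high against capillary cells was at −0.083 without the block. With DESeq2, 3 genes were called between arterial and capillary MI cells, and Ednrb turned to −0.024 for arterial against Nr2f2 and −0.028 for Plvap-high against capillary cells.

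With at least 2 UMIs of the gate genes, no healthy mouse had 20 Nr2f2 cells, so healthy contrasts of that class gave no value. There, arterial Nos3 was at 0.0075, Ednrb at −0.30 and Ace at −0.012 for MI against healthy. In capillary cells Ace and Ptgs1 had no value in this setting, and none of the genes with a value was called. Nos3 was at −0.069 for arterial against capillary healthy cells, and Ednrb was at −0.024 for Plvap-high against capillary cells. The class by condition terms of arterial cells were −0.34 for Klf2, −0.53 for Klf4, 0.44 for Nos3 and −0.0093 for Ednrb, with 0 called, beside 20 of 8209 genes in all. With the gate on unthinned UMIs, Nos3 was at −0.091 for MI against healthy Nr2f2 cells, 0.025 for Nr2f2 against capillary healthy cells, 0.12 for Plvap-high against capillary and 0.025 for Plvap-high against Nr2f2 cells, where Ptgs1 was at 0.023. In that setting the class by condition terms were −0.34 for Klf4 and 0.040 for Nos3 in arterial cells, with 1 called (162 of 11526 genes in all). They were 0.026 for Klf2 and −1.49 for Edn1 in Nr2f2 cells, with 1 called, Edn1 (49 of 11526 genes in all). With no filter that Edn1 term was −1.36 and called, 1 of 7 (86 of 16175 genes in all). The arterial Klf2 term was not called with a Plvap limit of 3 (−0.47) or 1 (−0.42) or with copied cells left out (−0.45), each leaving 1 of 7, and the Nr2f2 Klf2 term was at 0.0093 without copies. A Plvap limit of 3 put Ednrb at −0.25 for Plvap-high against capillary cells, and a limit of 1 put Nos3 at 0.069 there and 0.031 against Nr2f2 cells. With the cells richest in Edn1 left out, the arterial class by condition terms were −0.45 for Klf2, no longer called and leaving 1 of 7, and 0.060 for Edn1, and Ednrb was at −0.018 for Plvap-high against capillary cells. Ednrb was at −0.0080 there without lymphatic-marked cells. The causes were not tested.

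Leaving out single mice, the genes called numbered 1 to 3 in capillary cells for MI against healthy, 3 to 5 for Nr2f2 against capillary healthy cells, 3 to 7 for arterial against capillary MI cells, and 1 to 2 for the arterial class by condition term. Values that changed sign were, for MI against healthy, arterial Ednrb (−0.20 to 0.41), capillary Nos3 (−0.12 to 0.067) and Nr2f2 Ace (−0.13 to 0.46). For arterial against Nr2f2 cells they were Ednrb in healthy (−0.060 to 0.79) and MI mice (−0.24 to 0.19) and Klf2 in MI mice (−0.049 to 0.10), and for Plvap-high against capillary cells Nos3 (−0.13 to 0.018) and Ednrb (−0.25 to 0.17). Class by condition terms ranged in arterial cells from −0.55 to −0.38 for Klf2, −0.22 to 0.032 for Nos3, −0.45 to 0.27 for Edn1 and −0.52 to 0.025 for Ptgs1, and in Nr2f2 cells from −0.16 to 0.072 for Klf2. Of 1319 alternatives for single genes within or between classes, class by condition terms left aside, 1179 kept direction and side of the threshold, 87 lost a call, 20 gained one and 33 changed sign. Of 241 for the class by condition terms, 211 kept both, 14 lost a call, 2 gained one and 14 changed sign. Shares differed by 4.03 (Klf2), 5.35 (Klf4), 16.3 (Nos3), 1.72 (Edn1) and 11.96 (Ednrb) percentage points in unthinned cells, where MI cells are deeper. The share of Nos3 differed by −0.037 thinned to 2000 UMIs, −0.16 in all deposited cells and −0.38 to 0.398 with single mice left out. With a mouse left out, Ace (2.19 to 3.35) and Ptgs1 (2.53 to 3.70) could not pass, since 3 against 4 mice allow no p under 0.0571.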
